A study of Homo sapiens with 3 samples.

Results

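Interferon-stimulated genes are the genes whose transcription follows the binding of interferons to their receptors. Receptor-bound Janus kinases phosphorylate STAT proteins, which join IRF9 in a complex that binds the interferon-stimulated response element of target promoters, while STAT dimers bind the gamma-activated site. The products detect viral RNA and DNA, degrade RNA, block translation or hinder viral entry and release. In colon epithelium they are part of the defence against enteric viruses, and many are also transcribed in tumour cells without added interferon. The group described here is a list of 43 interferon-induced genes and interferon signalling factors chosen by symbol. Of these, 41 were measured by a probe set that names 1 gene, among 18417 genes measured in this way. The RNA sensor listed as DDX58 was measured under its current symbol RIGI. STAT2 was not analysed here, and GBP1 was measured only by a probe set that also names GBP3 and GBP1P1.

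The data come from 3 cultures of LoVo, an established human colorectal cancer line, whose RNA was hybridized to Affymetrix Human Gene 1.0 ST arrays, 1 for each culture. LoVo-R8 cells had been made resistant by stepwise exposure to irinotecan, a topoisomerase I inhibitor, starting at 0.1 μM and ending at 8 μM. They were grown with 8 μM irinotecan (LoVo 8R+) or without the drug (LoVo 8R-), and parental LoVo cells served as the reference. The labels of all arrays share a treatment text that speaks of irinotecan for 24 h before RNA purification, but the sources used here do not say whether parental cells received it. Both LoVo-R8 cultures come from a single resistant line, and whether that line is 1 clone is not stated either. Values are log2 levels after robust multichip average (RMA) normalization by the authors, so a difference of 1 is 2-fold. Without replicate arrays, no value has an error or a p-value. In every count below, higher or lower means a change of at least 2-fold. Each level is an average over a culture, in which less RNA per cell and fewer cells with that RNA cannot be told apart.

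Of 12 colon epithelial markers, 1 lay below the array median in LoVo 8R+, 2 in LoVo 8R- and 1 in parental LoVo. EPCAM had 12.03 in LoVo 8R+, 11.90 in LoVo 8R- and 12.33 in parental LoVo. Among the 12 markers of that list, CDH1, CEACAM5 and LGALS4 were at least 2-fold lower on both LoVo-R8 arrays and CDH17 was at least 2-fold higher. Of 6 fibroblast markers, 5 lay below the array median in LoVo 8R+, 4 in LoVo 8R- and 5 in parental LoVo. Of 6 measured blood cell markers, 5 lay below it on every array, PTPRC with 4.12 throughout, and only CD68 lay above it. The log2 of the summed level of the blood cell markers was 11.61 in LoVo 8R+ and 11.27 in LoVo 8R-, against 9.99 in parental LoVo, and it followed CD68, a lysosomal protein gene (11.51 and 11.12, against 9.64). The part of these marker differences in the values below was not tested.

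The interferon-stimulated genes did not move as a block. Relative to parental LoVo, 4 of the 41 reached 2-fold upwards and 5 downwards in LoVo 8R+, against 2.25% higher and 2.3% lower among all genes. LoVo 8R- had 4 higher and 7 lower members, against 1.64% and 2.78% of all genes. As shares of the members these counts are 9.76% higher and 12.2% lower in LoVo 8R+ and, for LoVo 8R-, 9.76% higher and 17.1% lower. IFIT1, IFIT2, IFIT5, RSAD2 and RIGI were lower on both LoVo-R8 arrays, and MX1 and IFI44 only in LoVo 8R-. The genes that went against them were IFI16 and GBP2, higher on both arrays, IFI6 and IFITM3, higher in LoVo 8R+, and SAMD9L and TRIM22, higher in LoVo 8R-. The other 28 lay within 2-fold of parental LoVo on both arrays. Below the array median on every array were 8 members, HERC5, OAS2, TRIM22, IFI44, IFI44L, XAF1, IFITM1 and MX2. The median difference of the members was -0.30 in LoVo 8R+ and -0.32 in LoVo 8R-, where the median of all genes was 0.00. Below their parental level were 26 of the 41 members in LoVo 8R+ and 28 in LoVo 8R-, against 8233 and 7087 of all 18417 genes. Both comparisons use the same parental array, so a deviation of that array enters each of them.

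**Figure D1:**
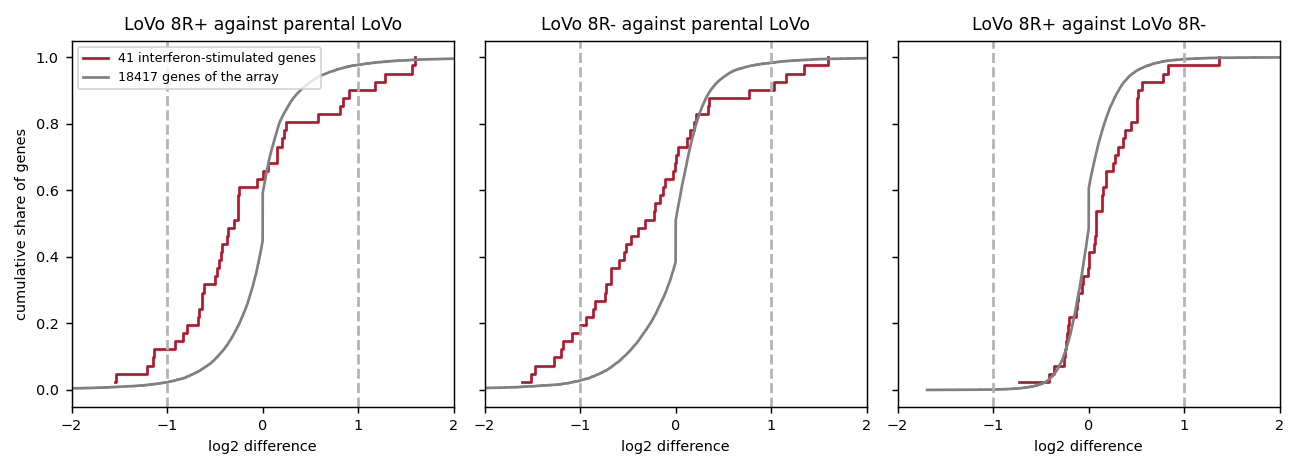
Cumulative share of genes (vertical axis) by log2 difference (horizontal axis, drawn between -2 and 2) for the 41 interferon-stimulated genes (red) and all 18417 genes (grey) in the 3 comparisons, with dashed lines at 2-fold. Against parental LoVo the red line lies left of the grey one at the low end, with medians of -0.30 and -0.32 against 0.00, and right of it at the high end.

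To show what the promoters of the members on either side look like, sequence before the transcription start was taken from the RefSeq promoter table (GRCh38.p14). It held 32 of the 41 members and lacked GBP2, IFIT2, IFITM2, IRF7, MX2, OAS2, OASL, TRIM22 and USP18. The response element was searched in the 250 bases before each start as the letters GAAA, any pair of bases, and GAAA again, on both strands, with overlapping matches allowed. The 160 bases before the start are printed 5′ to 3′ on the strand of the gene, with matches in capitals, first for 4 members that were lower on both LoVo-R8 arrays, then for 4 that were higher on at least 1 of them. Where a gene has several listed starts, 1 is shown.
IFIT1, chr10:89392463-89392622, plus strand: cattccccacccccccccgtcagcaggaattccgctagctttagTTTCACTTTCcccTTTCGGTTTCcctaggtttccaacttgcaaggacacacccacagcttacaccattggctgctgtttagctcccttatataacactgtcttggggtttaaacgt
IFIT5, chr10:89414408-89414567, plus strand: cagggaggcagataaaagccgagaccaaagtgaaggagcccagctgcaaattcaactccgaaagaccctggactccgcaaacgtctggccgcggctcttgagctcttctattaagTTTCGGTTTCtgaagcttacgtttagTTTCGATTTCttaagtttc
RSAD2, chr2:6877617-6877776, plus strand: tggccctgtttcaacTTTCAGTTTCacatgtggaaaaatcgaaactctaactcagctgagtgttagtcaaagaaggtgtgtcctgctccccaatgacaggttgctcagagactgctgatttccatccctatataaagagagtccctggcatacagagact
RIGI, chr9:32526197-32526356, minus strand: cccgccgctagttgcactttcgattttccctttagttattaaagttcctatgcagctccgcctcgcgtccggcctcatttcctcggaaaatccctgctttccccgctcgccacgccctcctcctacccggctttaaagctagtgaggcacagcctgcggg
IFI6, chr1:27672193-27672352, minus strand: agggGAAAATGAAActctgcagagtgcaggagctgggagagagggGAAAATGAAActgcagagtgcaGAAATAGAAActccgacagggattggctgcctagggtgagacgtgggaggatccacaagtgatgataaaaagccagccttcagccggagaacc
IFITM3, chr11:320861-321020, minus strand: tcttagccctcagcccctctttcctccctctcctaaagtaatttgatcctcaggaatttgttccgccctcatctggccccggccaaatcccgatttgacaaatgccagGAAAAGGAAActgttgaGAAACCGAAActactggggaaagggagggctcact
SAMD9L, chr7:93148386-93148545, minus strand: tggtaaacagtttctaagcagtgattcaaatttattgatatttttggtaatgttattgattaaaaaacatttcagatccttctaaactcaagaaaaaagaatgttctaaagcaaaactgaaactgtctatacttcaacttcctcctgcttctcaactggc
IFI16, chr1:159008831-159008990, plus strand: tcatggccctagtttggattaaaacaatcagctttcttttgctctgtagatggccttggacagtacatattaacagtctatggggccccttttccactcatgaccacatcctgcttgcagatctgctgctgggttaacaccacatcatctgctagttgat

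The IFIT1 and IFIT5 promoters each hold a pair of matches, which begin 116 and 103, and 45 and 19 bases before the start. RSAD2 has 1 match 145 bases before the start shown and 0 at its other listed start, and RIGI has 0. Of the lower members not printed, IFI44 has 1 match at each listed start and MX1 has 1 match at 1 of 3 listed starts. Among the genes that went the other way, IFI6 has 3 matches and IFITM3 has a pair, whereas SAMD9L and both listed starts of IFI16 have 0. Over all members in the table, 21 of 32 (65.6%) had a match, compared with 3.71% of 27305 genes with a promoter. A match was present in 5 of 6 members that were at least 2-fold lower on a LoVo-R8 array, in 2 of 4 that were higher, and in 14 of 22 that were within 2-fold on both. The gamma-activated site, searched as TTCNNNGAA, which reads the same on both strands and can overlap the response element, was found in 10 of 32 members (31.2%) and in 8.09% of all genes with a promoter. These are matches of letters in a fixed window and say nothing of binding by a factor.

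The IFIT proteins bind foreign RNA and block its translation, and their genes lie side by side on chromosome 10. IFIT1, which recognises RNA without cap methylation, had log2 levels 6.90 in LoVo 8R+ and 6.59 in LoVo 8R-, against 8.10 in parental LoVo. Both LoVo-R8 values were below the parental one, 2.31-fold in LoVo 8R+ and 2.86-fold in LoVo 8R-. IFIT2, its partner in a complex with IFIT3, had levels of 5.79 and 5.71, against 7.32 in parental LoVo. It lay at percentile 30.9 of the LoVo 8R+ array and 29.3 of the LoVo 8R- array, against 55.8 of the parental array, and was 2.89-fold and 3.05-fold lower. IFIT5, which binds uncapped RNA, had 7.10 and 7.16, against 8.24, or 2.21-fold and 2.12-fold lower. For IFIT3 the levels were 6.32 and 6.25, against 7.11, differences of -0.79 and -0.87 that did not reach 2-fold. The IFIT genes are paralogs whose probe sets may share sequence, so their values may not be independent.

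None of the measured genes next to this cluster was at least 2-fold lower. IFIT1B, which lies inside it, was below the first quartile on every array (4.83 and 4.84, against 4.81), so a lower level could hardly be seen. The 5 nearest measured genes on each side of the cluster had a median difference of 0.04 and a lowest one of -0.58 in LoVo 8R+, and a median of 0.13 and a lowest value of -0.18 in LoVo 8R-. Of these 10, 1 reached 2-fold, the actin gene ACTA2, which was higher (1.31 and 1.38).

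Oligoadenylate synthetases are activated by double-stranded RNA and make a second messenger that leads to RNA decay. All 4 measured members had lower levels in LoVo 8R- than in parental LoVo, by less than 2-fold. OAS1 had 9.11 in LoVo 8R+ and 8.59 in LoVo 8R-, against 9.53 in parental LoVo (differences -0.43 and -0.94). OAS2 had 6.48 and 6.10, against 6.94 (-0.46 and -0.84). OAS3 had 8.60 and 7.82, against 8.55, so only its LoVo 8R- value lay below the parental one (0.06 and -0.72). OASL, a relative without the synthetase activity, had 7.96 and 7.77, against 8.45 (-0.50 and -0.68). OAS1, OAS2 and OAS3 lie together on chromosome 12, and the 10 measured genes around them had medians of -0.15 (LoVo 8R+) and -0.09 (LoVo 8R-).

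EIF2AK2 encodes PKR, the kinase that halts translation on double-stranded RNA. It had 10.03 in LoVo 8R+ and 10.26 in LoVo 8R-, against 10.28 in parental LoVo (differences -0.26 and -0.03). The RNA exonuclease gene ISG20 had 7.13 and 7.39, against 7.39, the LoVo 8R- and parental values being identical after RMA. SAMD9 and SAMD9L are adjacent paralogs on chromosome 7 whose products restrict viruses and slow cell growth. SAMD9L had 6.85 in LoVo 8R+ and 7.10 in LoVo 8R-, against 5.94 in parental LoVo. It was thus above its parental level on both arrays, 1.88-fold and 2.23-fold. SAMD9 showed another pattern, with 7.49 in LoVo 8R+, 6.67 in LoVo 8R- and 7.34 in parental LoVo (differences 0.15 and -0.68). The 10 measured genes around the pair had median differences of 0.00 on both arrays. Over these 12 genes of RNA recognition and translation block, LoVo 8R+ had 0 higher and 3 lower, against 2.25% and 2.3% of all genes. LoVo 8R- had 1 higher and 3 lower, against 1.64% and 2.78%. The 3 lower genes were the paralogs IFIT1, IFIT2 and IFIT5 on both arrays. Medians of the 12 were -0.44 (LoVo 8R+) and -0.78 (LoVo 8R-).

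**Figure D2:**
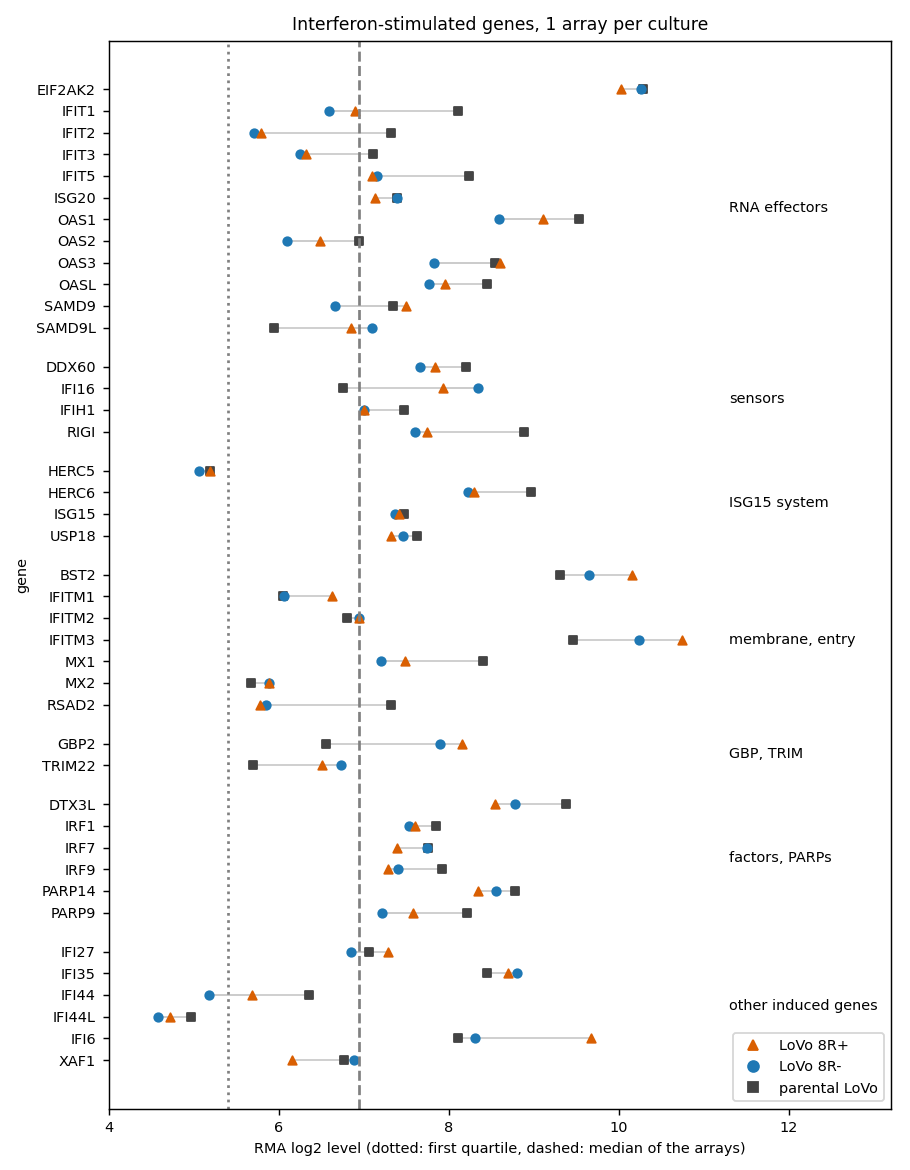
RMA log2 level (horizontal axis) of the 41 measured genes, grouped by role, in LoVo 8R+ (triangles), LoVo 8R- (circles) and parental LoVo (squares), 1 array each, with the first quartile (dotted) and the median (dashed) of the arrays averaged over the 3. The IFIT genes, RSAD2, RIGI and MX1 have their squares to the right of both other symbols, and IFI16, GBP2, SAMD9L, TRIM22 and IFITM3 have them to the left.

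The sensors were divided. RIGI, the cytosolic sensor of uncapped viral RNA, had 7.74 in LoVo 8R+ and 7.61 in LoVo 8R-, against 8.88 in parental LoVo. Both LoVo-R8 arrays were below the parental one, 2.20-fold and 2.42-fold. IFIH1, the related sensor of long double-stranded RNA, had 7.001 and 7.007, against 7.477 (differences -0.48 and -0.47). DDX60, a helicase linked to the same sensors, had 7.84 and 7.66, against 8.20 (-0.36 and -0.54). IFI16, which binds DNA in the nucleus and cytosol, stood opposite to them with 7.94 in LoVo 8R+ and 8.35 in LoVo 8R-, against 6.76 in parental LoVo. It was 2.26-fold and 3.01-fold higher, the second of these being the largest higher value among the 41 genes in LoVo 8R-. Each of the 10 measured genes around IFI16 was within 2-fold, with medians of 0.00 and 0.07.

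ISG15 is a ubiquitin-like protein that is attached to other proteins, HERC5 is its main ligase in human cells, and USP18 removes it and also blocks the interferon receptor. None of these genes reached 2-fold. ISG15 had 7.42 in LoVo 8R+ and 7.37 in LoVo 8R-, against 7.47 in parental LoVo. USP18 had 7.32 and 7.46, against 7.63. A further probe set that names USP18 together with USP41P had 8.28 and 7.75, against 8.49. HERC6 had 8.30 and 8.22, against 8.97 (differences -0.67 and -0.74). HERC5 was below the first quartile on every array (5.19 and 5.06, against 5.19). Near these genes on chromosome 4 lies ABCG2, an efflux pump gene, with differences of 2.99 and 2.66, and the 10 measured genes around HERC5 and HERC6 had medians of 0.23 and 0.26.

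Proteins that act at membranes were also divided. RSAD2 encodes viperin, an enzyme that makes a chain-terminating nucleotide and inhibits many viruses. Its level was 5.78 in LoVo 8R+ and 5.85 in LoVo 8R-, against 7.32 in parental LoVo. It was 2.91-fold lower in LoVo 8R+, and without the drug 2.77-fold lower. Of the 10 measured genes around RSAD2, ID2 was also lower on both arrays (-1.05 and -1.69), and the medians were -0.03 and -0.01. MX1, a dynamin-like GTPase that blocks influenza virus, had 7.48 and 7.20, against 8.40. It was 1.89-fold lower in LoVo 8R+ and 2.29-fold lower in LoVo 8R-. Its neighbour MX2, which acts on retroviruses, lay below the array median throughout (5.88 and 5.88, against 5.67). Of the 10 measured genes around the MX pair, PCP4 and BACE2 were also at least 2-fold lower on both arrays, and the medians were 0.00 and 0.02.

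IFITM3, which stops virus fusion in endosomes, had 10.75 in LoVo 8R+ and 10.23 in LoVo 8R-, against 9.46 in parental LoVo. Both values lay above the parental one, 2.43-fold with irinotecan and 1.71-fold without it. IFITM1, which acts at the cell surface, had 6.63 and 6.07, against 6.05, and IFITM2 had 6.95 and 6.95, against 6.80. The IFITM genes are near-identical neighbours on chromosome 11, so a probe of one may also detect another and the values are uncertain. BST2, which tethers budding virus to the cell, had 10.15 and 9.65, against 9.31 (differences 0.84 and 0.34). For IFITM3, IFITM1 and BST2 the LoVo 8R+ level was above the LoVo 8R- level by 0.51 to 0.56.

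Both measured genes of the guanylate-binding and TRIM group lay above their parental levels. GBP2, a GTPase that attacks the membranes of intracellular pathogens, had 8.15 in LoVo 8R+ and 7.90 in LoVo 8R-, against 6.56 in parental LoVo. It was 3.02-fold and 2.54-fold higher. A further probe set of GBP2 alone had differences of 1.03 and 0.86, so the probe sets share the direction and only 1 of them reached 2-fold in LoVo 8R-. The ubiquitin ligase gene TRIM22 had 6.51 and 6.73, against 5.70, all below the array median. It was 1.76-fold and 2.04-fold higher, and with loess correction its difference in LoVo 8R- was 0.95 and no longer reached 2-fold. Around GBP2 and around TRIM22, each of the 10 nearest measured genes was within 2-fold on both arrays. Probe sets that name several genes are not among these neighbours. The one that names GBP1, GBP3 and GBP1P1 had differences of 1.82 (LoVo 8R+) and 1.40 (LoVo 8R-), past 2-fold on both arrays.

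Of the 6 signalling factor and ADP-ribosylation genes, 0 reached 2-fold. All lay below their parental levels on both LoVo-R8 arrays, except that IRF7 in LoVo 8R- was nearly at its parental level (-0.01) and turned to 0.02 with repeated quantile normalization. IRF9, the DNA-binding subunit of the complex with STAT proteins, had 7.29 in LoVo 8R+ and 7.40 in LoVo 8R-, against 7.92 in parental LoVo. IRF1, a factor induced mainly by interferon gamma, had 7.60 and 7.53, against 7.85. IRF7, which amplifies interferon production, had 7.39 and 7.75, against 7.76. PARP9 and DTX3L encode partner proteins that ubiquitylate histones and promote interferon signalling. PARP9 had 7.58 and 7.22, against 8.22. Its difference in LoVo 8R- was -0.998, just short of 2-fold, and with median centring (-1.01) or loess (-1.02) it was past it. DTX3L had 8.54 and 8.78, against 9.37 (differences -0.83 and -0.60). These genes are divergent neighbours, and the windows before their starts overlap on chromosome 3 (DTX3L chr3:122564178-122564337 and PARP9 chr3:122564301-122564460, GRCh38.p14). PARP14, a further ADP-ribosyltransferase gene of the same locus, had 8.34 and 8.55, against 8.78. The medians of the group were -0.54 (LoVo 8R+) and -0.42 (LoVo 8R-), and the 10 measured genes around the locus had -0.11 and -0.08. PARP15, which lies inside the locus, had differences of -1.19 and -0.94, the first of them past 2-fold.

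Among the remaining members, IFI6 differed most between the LoVo-R8 cultures. IFI6, a membrane protein that protects cells from apoptosis, had 9.67 in LoVo 8R+ and 8.31 in LoVo 8R-, against 8.11 in parental LoVo. With irinotecan it was 2.95-fold above the parental level, and without the drug 1.15-fold. Of the 10 measured genes around IFI6, the small RNA gene SCARNA1 had differences of 1.29 (LoVo 8R+) and 0.02 (LoVo 8R-), and the other 9 were within 2-fold. IFI44 had 5.69 and 5.18, against 6.36, or 1.59-fold and 2.27-fold lower, and its LoVo 8R- value was below the first quartile of that array. Of the 10 measured genes around IFI44 and IFI44L, GIPC2 (-0.88 and -1.13) and TTLL7 (-0.72 and -1.12) were also lower in LoVo 8R-. IFI44L was below the first quartile on all arrays (4.72 and 4.58, against 4.97). IFI27 had 7.29 and 6.84, against 7.06. IFI35, whose product pairs with NMI, had 8.69 and 8.80, against 8.45. XAF1, whose product counters the apoptosis inhibitor XIAP, had 6.16 and 6.88, against 6.77, all below the array median.

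**Figure D3:**
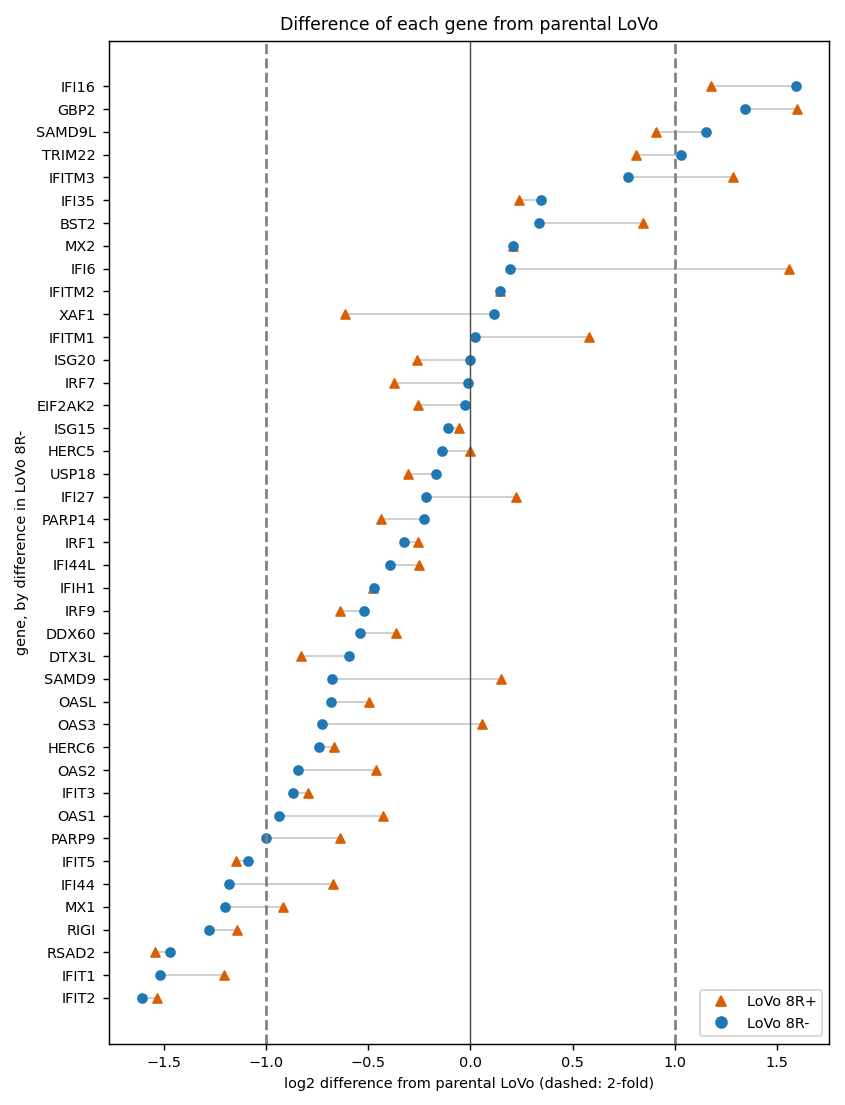
Log2 difference from parental LoVo (horizontal axis) of each of the 41 genes in LoVo 8R+ (triangles) and LoVo 8R- (circles), ordered by the LoVo 8R- value, with dashed lines at 2-fold. IFI16 (1.18 and 1.59) and GBP2 (1.60 and 1.34) are at the upper end, IFIT2 (-1.53 and -1.61), IFIT1 (-1.21 and -1.52) and RSAD2 (-1.54 and -1.47) at the lower end, and IFI6 has the widest gap between its symbols.

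LoVo 8R+ was compared with LoVo 8R- to describe how the resistant cultures with and without the drug differed. With 1 array per culture, the drug cannot be told apart from other differences between the cultures or the arrays. Only 1 of the 41 genes, IFI6, reached 2-fold (2.58-fold higher in LoVo 8R+), and 0 were lower, against 0.527% higher and 0.114% lower among all genes. Below the 2-fold line, the largest differences upwards were those of SAMD9 (0.83), OAS3 (0.78), IFITM1 (0.56), IFITM3 (0.51), OAS1 (0.51), IFI44 (0.51) and BST2 (0.51). The largest downwards were those of XAF1 (-0.73) and IFI16 (-0.41). For 5 of the 41, namely IFI6, SAMD9, OAS3, XAF1 and IFITM1, the difference exceeded 0.53 in size, the bound that 95% of all genes stayed within. IFIT1 was above its LoVo 8R- level by 0.31, outside the middle range of all genes (quartiles -0.13 and 0.11). The other IFIT genes and RSAD2 lay within that range, with differences of 0.08 for IFIT2, 0.07 for IFIT3, -0.06 for IFIT5 and -0.07 for RSAD2. The median of the members was 0.07 (24 above 0 and 16 below), and that of all genes 0.00 (7265 above 0 and 8916 below).

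The upstream and neighbouring parts of the pathway were examined through lists chosen by function. The receptors, Janus kinases, STAT3 and further IRF factors, 14 measured genes, had 0 past 2-fold on either array and medians of 0.06 (LoVo 8R+) and 0.01 (LoVo 8R-). IFNGR1, a chain of the interferon gamma receptor, came nearest, with 10.78 and 10.62, against 9.80 (differences 0.98 and 0.81). JAK1, the kinase shared by these receptors, had differences of -0.01 and -0.02. Of 9 measured interferon ligand genes, 0 reached 2-fold, and 7 lay below the array median on every array, IFNB1 with 4.30 in LoVo 8R+ and 4.28 in LoVo 8R-, against 4.30. The lambda interferon genes IFNL2 (7.12 on each array) and IFNL3 (8.80 and 8.80, against 8.64) lay above it. IFNL2 had an identical value on every array and IFNL3 on both LoVo-R8 arrays. Whether these signals come from transcripts of these genes was not tested.

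Among 13 measured genes of nucleic acid sensing, CGAS, the cytosolic DNA sensor that makes cyclic GMP-AMP, was the only one past 2-fold. Its level was 8.49 in LoVo 8R+ and 8.45 in LoVo 8R-, against 10.01 in parental LoVo, or 2.87-fold and 2.95-fold lower. STING1, the receptor of that messenger, had 9.12 and 9.10, against 8.34 (0.78 and 0.76). The list had medians of -0.10 and 0.06. Of 8 negative regulators, TNFAIP3, which restrains NF-kappaB, was higher on both arrays (9.10 and 8.52, against 7.50), and SOCS1 and SOCS3 had differences of 0.00 or below in both. Of 20 listed antigen presentation genes, 13 were measured, with medians of 0.03 and 0.12. In LoVo 8R+, 2 of them were higher and 0 lower, against 2.25% and 2.3% of all genes. LoVo 8R- had 0 higher and 0 lower, against 1.64% and 2.78%. The 2 higher genes were the immunoproteasome subunit gene PSMB9 (1.16 and 0.93) and TAPBP, which loads peptides (1.06 and 0.74).

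A list of 38 further measured interferon-induced genes also had genes on both sides, with medians near 0. In LoVo 8R+, 3 were higher and 4 lower, against 2.25% and 2.3% of all genes, with a median of 0.01. In LoVo 8R-, 2 were higher and 3 lower, against 1.64% and 2.78%, with a median of 0.08. TNFSF10, which encodes the death ligand TRAIL, had 8.93 in LoVo 8R+ and 7.97 in LoVo 8R-, against 6.10 in parental LoVo. At 7.14-fold and 3.68-fold higher, it had the largest difference of that list on each array. TRIM38 was also higher on both arrays (1.16 and 1.24), and NMI lower on both (-1.63 and -1.04). ZC3HAV1, which binds viral RNA, was lower in LoVo 8R- (-0.90 and -1.46), as was APOL1 (-0.18 and -1.34). IFI30 (1.25 and 0.31) was higher in LoVo 8R+ and EPSTI1 (-1.60 and -0.94), LAMP3 (-1.23 and -0.95) and WARS1 (-1.24 and 0.11) were lower there, and these 4 were chosen for mention after seeing their values. MX1, ISG15, OAS1, IFIT1, IFIT3 and IFI44, all members described above, belong to a set of interferon-induced genes known from tumour cells that resist DNA-damaging treatment. The set has 7 genes, of which 6 were measured, and as members these are already part of the counts given above. Their median differences were -0.73 (LoVo 8R+) and -1.06 (LoVo 8R-), and 6 of 6 lay below the parental level on both arrays. With irinotecan, this held for 26 of the 41 members and 8233 of all 18417 genes. Without the drug it held for 28 members and 7087 genes.

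**Figure D4:**
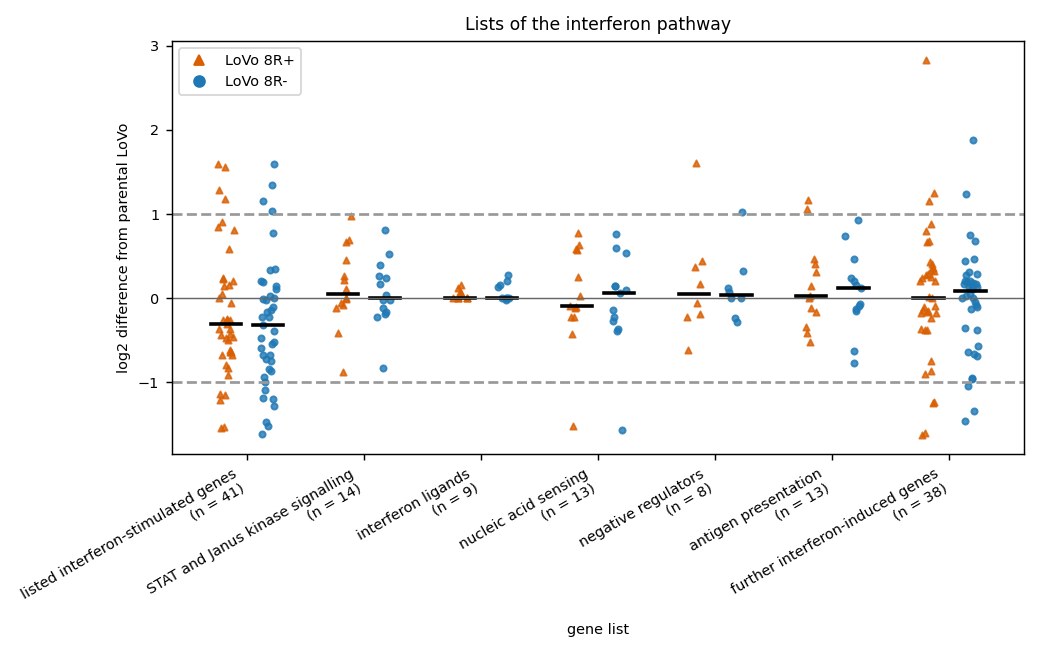
Log2 difference from parental LoVo (vertical axis) of each measured gene in the interferon-stimulated group and in 6 further lists (horizontal axis), in LoVo 8R+ (triangles) and LoVo 8R- (circles), where black bars are medians and dashed lines mark 2-fold. The interferon-stimulated group has medians of -0.30 and -0.32, and the medians of the other lists lie between -0.10 and 0.12.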

How the data were processed

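Total RNA (300 ng per sample) was hybridized by the authors to Affymetrix Human Gene 1.0 ST arrays, 1 per culture. The deposited values are log2 levels that the authors made by RMA, which corrects background, normalizes quantiles across the arrays and summarises probes. Expression Console 1.1 from Affymetrix is named in the submitters' processing notes, and R and Bioconductor in the methods. The table holds 33297 probe sets, of which 19460 name 1 gene and 1754 name several in the annotation used. Where several probe sets named a gene alone, the one with the highest average level was used. Log2 levels were subtracted, and differences of 2-fold were counted. No test could be made with 1 array per condition, and precision is limited by this number. RMA over 3 arrays left 26.1% of probe sets with an identical value on 2 or more arrays, including those of 3 members.

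The members, the gene lists and the motifs were chosen with earlier results of these data known. Every measured member was named. Of the other lists, genes past 2-fold against parental LoVo were named, at most 5 by their size in LoVo 8R-. STAT3, JAK1, IFNGR1, IFNB1, IFNL2, IFNL3, STING1, SOCS1 and SOCS3 were named outside this rule, with their values known, as were EPCAM, PTPRC and CD68. The single neighbouring genes (ACTA2, IFIT1B, ID2, ABCG2, PCP4, BACE2, PARP15, SCARNA1, GIPC2 and TTLL7) were named after their values were known. Neighbouring genes were the 5 nearest measured genes on each side in the RefSeq order of GRCh38.p14. Python 3.11.15 with numpy 2.4.6, pandas 2.3.3, statsmodels 0.14.6 and matplotlib 3.10.9 was used, and the calculation was tested on simulated data. Alternatives were thresholds of 1.5-fold and 3-fold, median centring, loess against the mean array (span 0.3), repeated quantile normalization, filters on dim genes, the mean over probe sets, and leaving out members with close paralogs. Adding GBP1 through its shared probe set was chosen after seeing the data. The detection filter, clustering and ontology groups of the study were not used.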

Additional observations from a re-analysis of the deposited data

Results flagged for a closer look

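The probe set that names GBP1, GBP3 and GBP1P1 was left out of the comparisons because it names several genes, and it had a signal above that of the parental array. Its level was 9.13 in LoVo 8R+ and 8.71 in LoVo 8R-, against 7.31 in parental LoVo, differences of 1.82 and 1.40. The probe set of GBP3 alone had differences of 0.34 and 0.28, and which gene gives the signal of the shared probe set was not tested.

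WARS1, the cytosolic tryptophanyl-tRNA synthetase gene and an interferon-induced gene, had opposite signs in the LoVo-R8 cultures. Its level was 10.40 in LoVo 8R+ and 11.76 in LoVo 8R-, against 11.65 in parental LoVo, differences of -1.24 and 0.11. With 1 array per culture the difference between the cultures was not tested.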

How the results depend on the processing

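The counts depended on the threshold. At 1.5-fold, 7 members were higher and 13 lower in LoVo 8R+ than in parental LoVo, against 5.79% and 7.19% of all genes, and 5 and 16 in LoVo 8R-, against 4.37% and 8.84%. Between LoVo 8R+ and LoVo 8R-, 3 were higher and 1 lower, against 2.87% and 1.08%. At 3-fold, 1 was higher (GBP2) and 0 lower in LoVo 8R+, against 0.733% and 0.831% of all genes. In LoVo 8R-, 1 was higher (IFI16) and 1 lower (IFIT2), against 0.483% and 0.977%. Between the LoVo-R8 arrays 0 were higher and 0 lower, against 0.0706% and 0.00543%. Without the 12 measured members that have a close paralogue in the list, 29 were left. At 2-fold, LoVo 8R+ had 2 of these upwards and 2 downwards, beside 2.25% and 2.3% of the 18417 genes. The LoVo 8R- counts were 2 upwards and 4 downwards, beside 1.64% and 2.78%. With genes at or above the array median only, the median of the members in LoVo 8R- was -0.495. The other counts and medians moved by no more than 1.5 times or 0.1 under median centring, loess, repeated quantile normalization, the mean over probe sets, the first-quartile filter and with GBP1 added. Under the normalization and probe set alternatives, no member past 2-fold changed its direction, and TRIM22 and PARP9 in LoVo 8R- were the only members to cross 2-fold. Against parental LoVo, 3 members within 0.03 of 0 in LoVo 8R- changed sign, EIF2AK2 (0.04) and IFITM1 (-0.06) with loess, and with repeated quantile normalization EIF2AK2 (0.03), IFITM1 (-0.01) and IRF7 (0.02). The order of GBP2 (1.60) and IFI6 (1.56) in LoVo 8R+ turned with repeated quantile normalization (1.57 and 1.58) and the mean over probe sets (1.31 and 1.56). Probe sets below the first quartile (HERC5, IFI44L and, in LoVo 8R-, IFI44) limit what their differences can show.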
